A study of Oryza sativa with 4 samples.

Results

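The sites described here are the bZIP binding sites at the distal ends of the rice chromosomes. They are all peaks with a centre in the last 2 Mb of each of the 12 chromosomes, or in the first 2 Mb of chromosomes 1, 2, 3, 5, 6, 7 and 8, which makes 19 windows. The rule uses position alone. It selects 3941 of the 31489 peaks of 3 bZIP proteins: 3515 of 28323 for OsBZIP42, 140 of 1107 for OsBZIP69 and 286 of 2059 for OsBZIP77. A further 9 of 194 peaks came from the negative control. The windows cover 38 Mb, or 10.2% of the length spanned by peaks.

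The peaks come from DAP-seq (DNA affinity purification sequencing), in which purified, fragmented genomic DNA is captured on a tagged protein made in a rabbit reticulocyte extract and then sequenced. Each of the 4 libraries used leaf DNA of the rice strain nipponbare. The baits were OsBZIP42 (HBF1), OsBZIP69 (FD4), OsBZIP77 (FD1) and HALO-GST, all carrying the HALO tag that couples a protein to beads. HALO-GST, in which the tag is joined to an enzyme that is not a transcription factor, was the negative control. Each protein had 1 library without a replicate, so no difference between proteins has a replicate check. The assay probes bare DNA, without chromatin, florigen or any partner protein from the plant. The identity of the baits was not checked against a binding motif, as no sequence was read.

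bZIP proteins grip DNA as dimers through a basic region and a leucine zipper, and plant members favour sequences with an ACGT core. FD-type bZIPs are the DNA-binding component of the complexes that florigen, a small mobile protein, forms with 14-3-3 proteins at the shoot apex. In rice, the distal parts of the chromosome arms are rich in genes, while repeats and transposons gather around the centromeres. Among the chromosome starts outside the set, the short arms of chromosomes 4 and 10 are rich in heterochromatin, chromosome 9 carries a ribosomal RNA gene array, and chromosomes 11 and 12 share a duplicated segment. The assay keeps the methylation of leaf DNA, which differs between such regions.

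All 3 proteins had more peaks per Mb in the distal windows than elsewhere on the same chromosomes. OsBZIP42 had 92.5 peaks per Mb there (95% interval 89.5 to 95.6) and 74.1 (73.2 to 75) in the rest, a ratio of 1.25. OsBZIP69 had 3.68 (3.10 to 4.35) against 2.89 (2.71 to 3.08), a ratio of 1.28. OsBZIP77 had 7.53 (6.68 to 8.45) against 5.30 (5.05 to 5.55), a ratio of 1.42. HALO-GST went the other way, with 0.237 peaks per Mb (0.108 to 0.450) in the windows and 0.553 (0.476 to 0.638) in the rest, a difference that was not tested. The intervals are exact Poisson intervals and reflect the number of peaks alone.

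The comparison was tested with the chromosome as the unit, pairing the distal windows of a chromosome with its own rest. OsBZIP42 density was higher at the ends on 11 of 12 chromosomes, by 19.7 ± 17.1 peaks per Mb (mean ± SD over 12 chromosomes; exact sign-flip permutation test, two-sided, p = 0.00293, adjusted p = 0.00293 over the 3 bZIP lists). The exception was chromosome 11, with 55 in its last window and 64.3 in the rest. OsBZIP69 was higher on 11 of 12 by 0.904 ± 0.837 (exact permutation test, adjusted p = 0.00293), the exception being chromosome 2 with 2.25 against 2.83. OsBZIP77 was higher on 12 of 12 by 2.37 ± 1.61 (exact permutation test, p = 0.000488, the smallest that 12 pairs allow, adjusted p = 0.00146). These p-values describe the chromosomes of single libraries and say nothing of repeat libraries. With windows of 1 Mb none of the 3 passed (exact permutation tests, adjusted p = 0.108 for OsBZIP42, 0.642 for OsBZIP69 and 0.233 for OsBZIP77). With the last windows alone OsBZIP69 did not pass (adjusted p = 0.0625), nor OsBZIP77 with the first alone (adjusted p = 0.0938; exact permutation tests, the latter over 7 chromosomes).

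**Figure D1:**
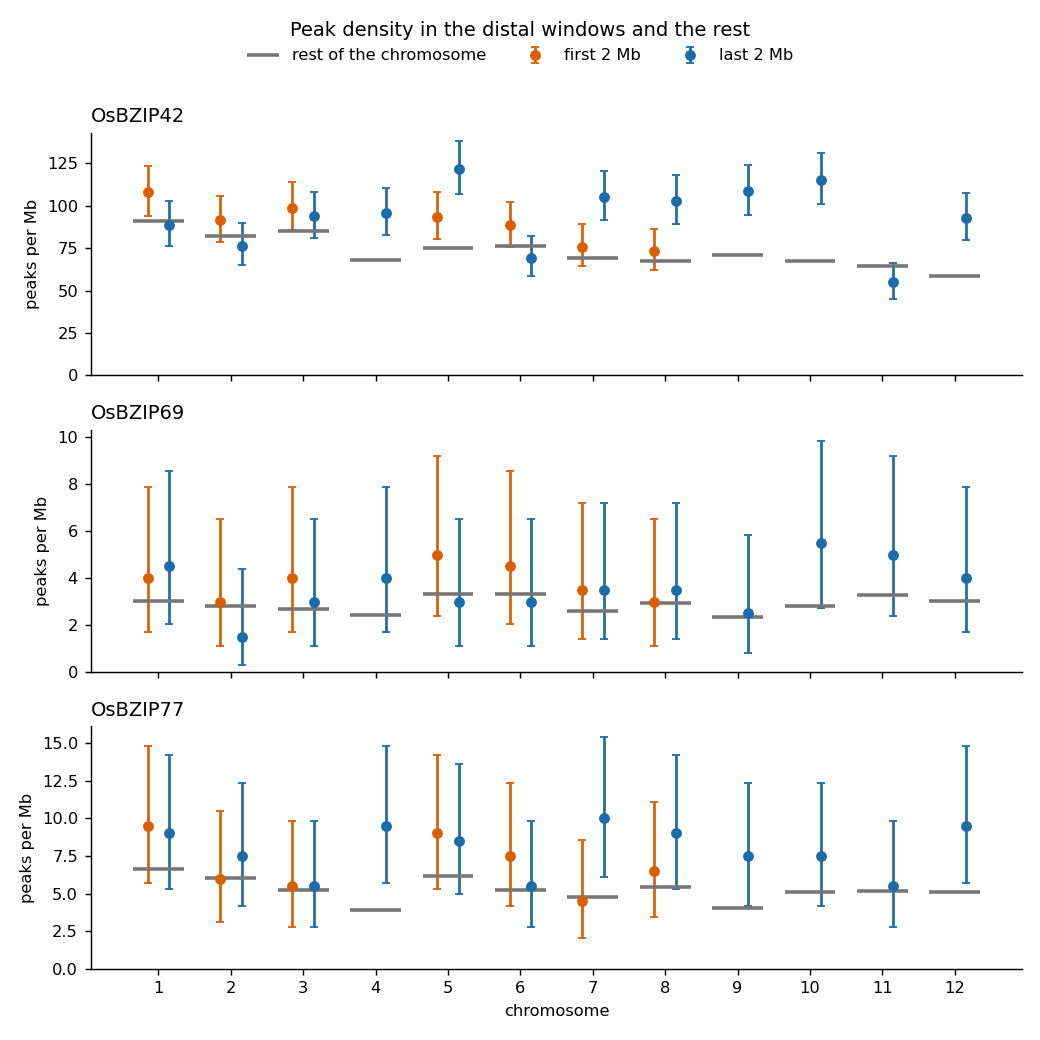
Peaks per Mb (vertical axes, from 0) in the first 2 Mb and last 2 Mb of each chromosome (points, with exact 95% Poisson intervals) and in the rest of the same chromosome (grey bars), for OsBZIP42, OsBZIP69 and OsBZIP77. OsBZIP42 points spread from 55.0 at the last window of chromosome 11 to 122 at that of chromosome 5, while the intervals of the other proteins are wide and overlap throughout.

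The spread over the 19 windows exceeded counting error for OsBZIP42 and not for the other proteins. Its density was highest in the last window of chromosome 5, at 122 peaks per Mb (107 to 138), followed by the last windows of chromosome 10 at 115.5 (101 to 131) and of chromosome 9 at 108.5 (94.5 to 124). It was lowest in the last window of chromosome 11, at 55.0 (45.2 to 66.3), below the last window of chromosome 6 at 69.5 (58.4 to 82.1) and the first window of chromosome 8 at 73.5 (62.1 to 86.4). The intervals of all 18 neighbours in this order overlap, whereas those of its top and bottom do not. The SD over windows was 16.8 peaks per Mb, and counting alone gives an SD of 6.80 at this mean. For OsBZIP69 the SD over windows was 0.975, less than the counting SD of 1.36, and for OsBZIP77 it was 1.74 against 1.94. The ratio of a window to its own rest nevertheless had a wider range for OsBZIP69 (0.531 to 1.94) and OsBZIP77 (0.940 to 2.43) than for OsBZIP42 (0.855 to 1.71), on far fewer peaks. Differences among windows were thus not detectable for OsBZIP69 and OsBZIP77 at their number of peaks.

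The last windows could be sorted by their OsBZIP42 ratio to the rest into an upper and a lower range, without intervals for the ratios. In 7 last windows, those of chromosomes 4, 5, 7, 8, 9, 10 and 12, its density was 1.41 to 1.71 times that of the rest of the chromosome. In the other 5, those of chromosomes 1, 2, 3, 6 and 11, the ratio was 0.855 to 1.10, and it was under 1 in all of these except chromosome 3. The 7 first windows had ratios of 1.09 to 1.24, below the upper range and level with chromosome 3. The split at 1.4 was chosen after the values were seen. Density intervals overlap across it, as in the last windows of chromosome 4 (82.9 to 111) and chromosome 3 (81.0 to 108). The ratio also depends on the rest. The last windows of chromosomes 12 and 3 had 93 and 94 peaks per Mb, and their rests 58.9 and 85.3. An OsBZIP42 interval lay wholly above the density of its own rest in 10 of 19 windows and wholly below it in 0. For OsBZIP77 these counts were 4 and 0, and for OsBZIP69 they were 0 and 0. OsBZIP69 reached its highest density, 5.50 peaks per Mb, in the last window of chromosome 10 and its lowest, 1.5, in that of chromosome 2. At the last window of chromosome 11, where OsBZIP42 was sparsest, OsBZIP69 had 10 peaks, or 5 per Mb (2.40 to 9.20), against 3.30 (2.65 to 4.06) in the rest of that chromosome. OsBZIP77 ran from 4.50 in the first window of chromosome 7 to 10 in its last window. The last window of chromosome 4 had the largest ratio of any for OsBZIP77, 9.5 per Mb against 3.91 in the rest.

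On the 7 chromosomes with windows at both ends, the first and last windows were not told apart. OsBZIP42 had a mean of 90.0 peaks per Mb in the first and 94.2 in the last windows, a difference of -4.21 ± 23.8 (mean ± SD over 7 chromosomes; exact permutation test, adjusted p = 0.656). Chromosomes pulled in opposite directions, with the last window denser on chromosome 5 (122 against 93.5), chromosome 7 (105.5 against 76.0) and chromosome 8 (103 against 73.5), and the first denser on chromosome 1 (108 against 89.0), chromosome 2 (91.5 against 76.5), chromosome 3 (99 against 94) and chromosome 6 (88.5 against 69.5). OsBZIP69 differed by 0.714 ± 1.04 (exact permutation test, adjusted p = 0.469) and OsBZIP77 by -0.929 ± 2.49 (exact permutation test, adjusted p = 0.656). With 7 pairs the smallest p is 0.0156.

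The raised density was not limited to the outer 2 Mb. Measured inward from the last peak of the 12 chromosomes, OsBZIP42 density stayed between 88.8 and 96.8 peaks per Mb in every 1 Mb step out to 9 Mb, and then went to 83.0, 77.4 and 71.1. OsBZIP77 kept between 7.33 and 8.42 over the outer 7 Mb and then 4.33 to 6.17 from 7 to 12 Mb. OsBZIP69 kept between 3.50 and 5.42 over the outer 7 Mb, with its highest step at 4 to 5 Mb, and had 2.08 to 3.42 beyond. Set against the zone 2 to 6 Mb from the same ends, the distal windows showed no difference that passed the test. For OsBZIP42 the paired means were 92.7 against 92.1 peaks per Mb (difference 0.646 ± 12.8, exact permutation test, adjusted p = 0.859). OsBZIP69 had 3.79 against 4.19 (adjusted p = 0.444) and OsBZIP77 7.60 against 7.93 (adjusted p = 0.594, exact permutation tests). For OsBZIP42 and OsBZIP77 the counts beside the 2 Mb edge of the last windows were close: the 100 kb just inside it held 113 OsBZIP42, 2 OsBZIP69 and 9 OsBZIP77 peaks, and the 100 kb just outside held 117, 6 and 9. At the first windows the counts were 60, 2 and 6 just inside the edge and 86, 3 and 6 just outside, so OsBZIP42 had more peaks outside it there.

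**Figure D2:**
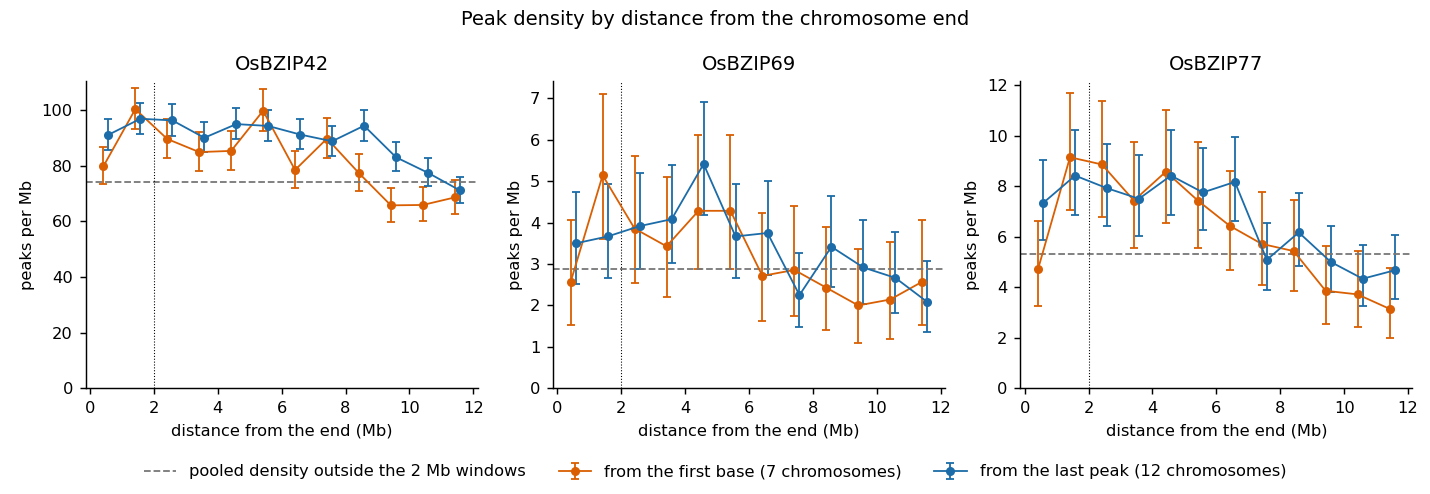
Peaks per Mb (vertical axes, from 0) in steps of 1 Mb from the chromosome end (horizontal axis, Mb) for each bZIP list, counted from the first base on 7 chromosomes and from the last peak on 12, with exact 95% Poisson intervals. The dashed line is the pooled density outside the 2 Mb windows and the dotted line the window edge; OsBZIP42 stays at 88.8 or more out to 9 Mb from the last peak.

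At the chromosome starts the outermost Mb held fewer peaks than the next, without passing the test. OsBZIP42 had 558 peaks in the outer and 702 in the inner Mb of the 7 first windows, OsBZIP69 had 18 and 36, and OsBZIP77 had 33 and 64. Per Mb the outer step had 79.7 (73.2 to 86.6) OsBZIP42, 2.57 (1.52 to 4.06) OsBZIP69 and 4.71 (3.25 to 6.62) OsBZIP77 peaks. The pooled rest of all chromosomes had 74.1, 2.89 and 5.30, each within the interval of its list. A raised density in the outer Mb was thus not detectable for any list. That comparison with the pooled rest was not tested. The inner Mb held more OsBZIP77 peaks on 7 of 7 chromosomes, from 5 against 4 on chromosome 7 to 14 against 4 on chromosome 5. That difference had an exact permutation p of 0.0156, and none of the 6 comparisons of outer with inner Mb passed after adjustment (exact permutation tests, adjusted p = 0.0938 for OsBZIP77 and 0.219 for the others at the starts). On chromosome 1 OsBZIP42 went from 72 peaks in the first Mb to 144 in the second, while chromosomes 2 and 8 had fewer in the second, 87 after 96 and 71 after 76. For OsBZIP42 the first 100 kb was the sparsest stretch of the 7 first windows, with 33 peaks against 46 to 86 in each of the other 19 steps of 100 kb. No list had a peak before 49392 on chromosome 5 or 129128 on chromosome 6. OsBZIP69 had 2 peaks in that step and 0 to 10 in the others, and OsBZIP77 had 3 against 1 to 9. The last windows are counted from an OsBZIP42 peak by construction, and their outermost 100 kb was the densest OsBZIP42 step, with 129 peaks against 93 to 125.

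The outermost peak of each list is given as a position only, since a list of 28323 peaks can be expected to reach nearer to an end than lists of 1107 or 2059, wherever its peaks lie. The outermost OsBZIP42 peak in the 7 first windows lay 7293 to 129228 bp from the first base, with a median of 12956 bp. The outermost OsBZIP69 peak lay 13037 to 818919 bp from it, and the outermost OsBZIP77 peak 13037 to 618187 bp. The nearest of both was the same site, on chromosome 1 from 12937 to 13137, where the centres of OsBZIP69 and OsBZIP77 coincided and that of OsBZIP42 was 1 bp away. It ranked high for all 3, with a signal of 130 for OsBZIP42, 91.0 for OsBZIP69 and 59.0 for OsBZIP77. Signal is the authors' own value per peak, in a unit that no source here states, and serves to rank peaks within a list.

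The signal of distal peaks did not differ from that of the rest past the threshold in any list. The median OsBZIP42 signal was 25.9 in the windows (lowest 9.0, highest 476) and 24 in the rest. Paired by chromosome, the median log2 signal was higher at the ends by 0.09 ± 0.12, on 7 chromosomes with 1 tie (exact permutation test, p = 0.0234, adjusted p = 0.0703). The OsBZIP42 difference passed with windows of 1, 3 and 5 Mb (exact permutation tests, adjusted p = 0.0439, 0.0205 and 0.00879). OsBZIP69 had a median of 29 against 25, and its paired difference of 0.17 ± 0.52 did not pass (exact permutation test, adjusted p = 0.418). OsBZIP77 had 23 against 22, a paired difference of 0.02 ± 0.13 (exact permutation test, adjusted p = 0.719). Of the 100 strongest peaks of each list, 19 of OsBZIP42, 19 of OsBZIP69 and 15 of OsBZIP77 were distal. The exact 95% interval of a share of 19% is 11.8 to 28.1 and that of 15% is 8.65 to 23.5; distal peaks made up 12.4%, 12.6% and 13.9% of the lists. Of the 500 strongest, 83 OsBZIP42 peaks were distal, or 16.6% (13.4 to 20.2), an interval above the share of distal peaks in that list. Like the other intervals of these shares, it is unadjusted and counts peaks as independent, which peaks of a chromosome are not. It is not a test over chromosomes. The 500 strongest held 75 distal OsBZIP69 peaks, or 15% (12 to 18.4), and 80 distal OsBZIP77 peaks, or 16% (12.9 to 19.5), and both intervals include the list shares.

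**Figure D3:**
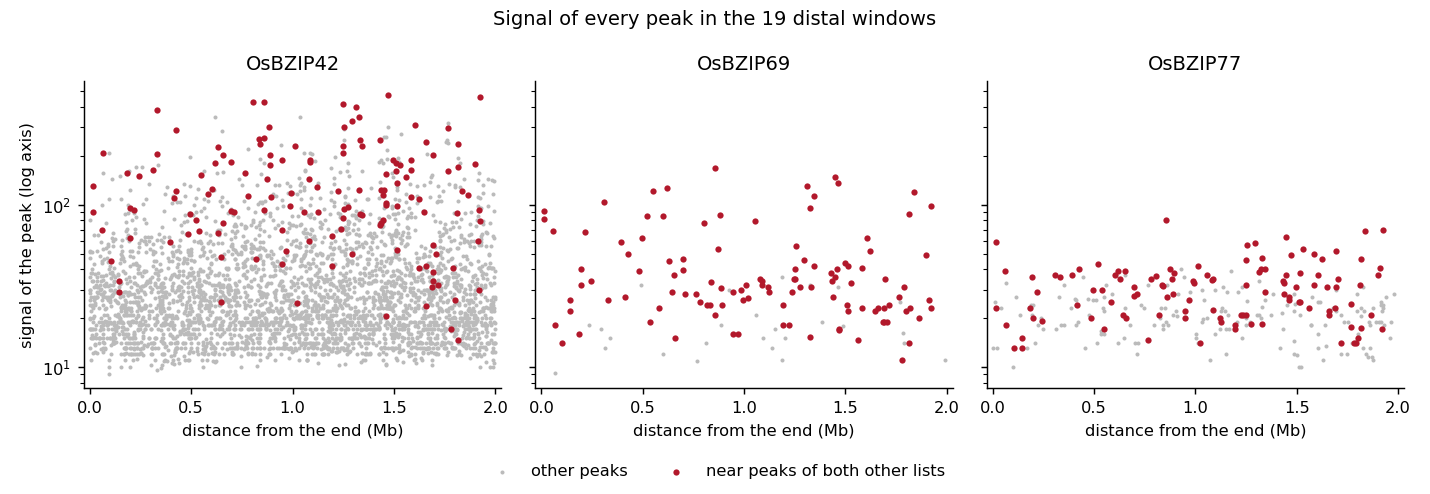
Signal (log axis) of every peak in the 19 windows against its distance from the chromosome end (Mb), by protein, with peaks that lie within 100 bp of both other lists in red. Red points gather in the upper part of the OsBZIP42 panel, with a median of 113 against 23.9 for peaks near neither other list, and they occur along the whole 2 Mb.

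The strongest distal OsBZIP42 peak was on chromosome 6, from 1468871 to 1469071, and had a signal of 476 (rank 6 of its list). OsBZIP77 was also strong there (49.0, top 2.91% of its list). OsBZIP69 was split into 2 centres 81 bp apart, with 17.1 and 16.9 (34 together). The nearer ranked at 78.3% of its list, a rank that counts it alone. The next strongest OsBZIP42 peak was on chromosome 5, from 1923801 to 1924001, with 463 for OsBZIP42, 98.0 for OsBZIP69 and 70 for OsBZIP77. All were within the top 3.79% of their lists. Chromosome 10 from 22328280 to 22328480 followed with 433; it held the strongest distal peak of both OsBZIP69 (168) and OsBZIP77 (80.0). The remaining leaders of OsBZIP42 lay on chromosome 4 from 34696779 to 34696979 (429) and on chromosome 5 from 1251003 to 1251203 (421). The OsBZIP42 list's strongest peak of all, with a signal of 736, fell 81019 bp inward of the first window of chromosome 5 and is not a distal site.

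The strongest OsBZIP42 peak of each window had a signal from 185, in the last window of chromosome 6, to 476, with a median of 290. In 13 of the 19 windows it lay within 100 bp of peaks of both other proteins, in 1 near OsBZIP77 alone (chromosome 7 from 29035495 to 29035695, with 285 against 23.0) and in 5 near neither. Those 5 were on chromosome 1 from 614487 to 614687 (347), chromosome 3 from 1765073 to 1765273 (239), chromosome 5 from 28334586 to 28334786 (219), chromosome 6 from 30104219 to 30104419 (185) and chromosome 9 from 21383472 to 21383672 (273). Of all OsBZIP42 peaks, 3.95% in the windows and 3.22% in the rest lay near both other proteins. Among the 50 strongest distal OsBZIP42 peaks, 28 did. No share is given for equally strong peaks of the rest, so the 13 do not describe a trait of the ends. The leading site of chromosome 11, from 27671520 to 27671720, combined 346 for OsBZIP42 with peaks of 15.3 for OsBZIP69 and 18.5 for OsBZIP77. These ranked at 85.0% and 66.2% of their lists. The OsBZIP77 peak was 1 of 2 centres, at 27671632 and 27671781, with 18.5 and 23.5 (42 together), and its rank counts it alone. At the leading site of chromosome 12, from 26262437 to 26262637, OsBZIP77 stood in the top 1.46% of its list with 56.4.

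OsBZIP69 had its other leading distal peaks on chromosome 3 from 1448909 to 1449109 (148), chromosome 12 from 26055061 to 26055261 (136) and 2 sites of chromosome 7, from 1311162 to 1311362 (131) and from 618087 to 618287 (127). Each also held peaks of both other proteins. OsBZIP77 had its own on chromosome 7 from 27850423 to 27850623 (69.0) and chromosome 2 from 1446814 to 1447014 (63.0), besides the sites on chromosomes 1, 5 and 10 given above.

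Of the 140 distal OsBZIP69 peaks, 113 (80.7%) lay within 100 bp of peaks of both other proteins. In the rest the share was 72.6%, and in the whole list 815 of 1107 peaks did so. Every one of the 19 windows held such sites, from 3 in the last windows of chromosomes 2 and 3 to 9 in the last window of chromosome 10. With a share this high in the whole list, their presence in each window does not set the ends apart. The 10 with the best worst rank were within the top 8.55% of all 3 lists. Of these 10, 6 were in first windows, as were 46 of all 113. OsBZIP69 and OsBZIP77 centres coincided at all 10, which was not counted for the other common sites. At 9 of the 10 the OsBZIP42 centre was within 1 bp. Besides sites already named, they lay on chromosome 2 from 1325206 to 1325406 (123 for OsBZIP42, 95 for OsBZIP69 and 40.0 for OsBZIP77), chromosome 3 from 520946 to 521146 (80.0, 85.0 and 43.0), chromosome 8 from 26599590 to 26599790 (170, 88.0 and 46.2) and chromosome 12 from 26172807 to 26173007 (86.0, 114 and 40.0). At the chromosome 3 and chromosome 12 sites the OsBZIP69 value was above that of OsBZIP42, though the scales of the libraries were not matched.

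Sharing among the proteins was then compared between the windows and the rest. A distal OsBZIP42 peak had an OsBZIP77 peak within 100 bp in 319 of 3515 cases, or 9.08% (exact binomial 95% interval 8.15 to 10.1), against 7.62% (7.29 to 7.96) in the rest and 7.80% over the whole list. The share was higher at the ends on 12 of 12 chromosomes, by 1.55 ± 1.19 percentage points (exact permutation test, p = 0.000488, the smallest that 12 pairs allow, adjusted p = 0.00293 over 6 ordered pairs of lists). With OsBZIP69 it was 164 of 3515, or 4.67% (3.99 to 5.42), against 4.28% (4.04 to 4.54) in the rest and 4.33% over the whole list, a paired difference of 0.561 ± 1.31 points (exact permutation test, adjusted p = 0.332). Nearly all OsBZIP77 peaks lay near an OsBZIP42 peak in both zones (97.6% in the windows and 96.2% in the rest). The share of OsBZIP42 peaks with OsBZIP77 therefore moves with the ratio of the 2 densities. It is not separate from the density results. The OsBZIP77 result did not set the ends apart from their surroundings. The paired means were 9.25% in the windows and 9.47% at 2 to 6 Mb from the same ends (exact permutation test, adjusted p = 0.825). With the rest of all 12 chromosomes pooled and weighted to the distal signals, the difference was 0.872 points and did not pass (exact permutation test, adjusted p = 0.400). That setting also gave up the pairing with a chromosome's own rest, so the part of signal in the change was not tested. The difference also did not pass with windows of 1 Mb (exact permutation tests, adjusted p = 0.852), the first windows alone (0.188) or only the upper 50% of peaks by q-value (0.160).

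**Figure D4:**
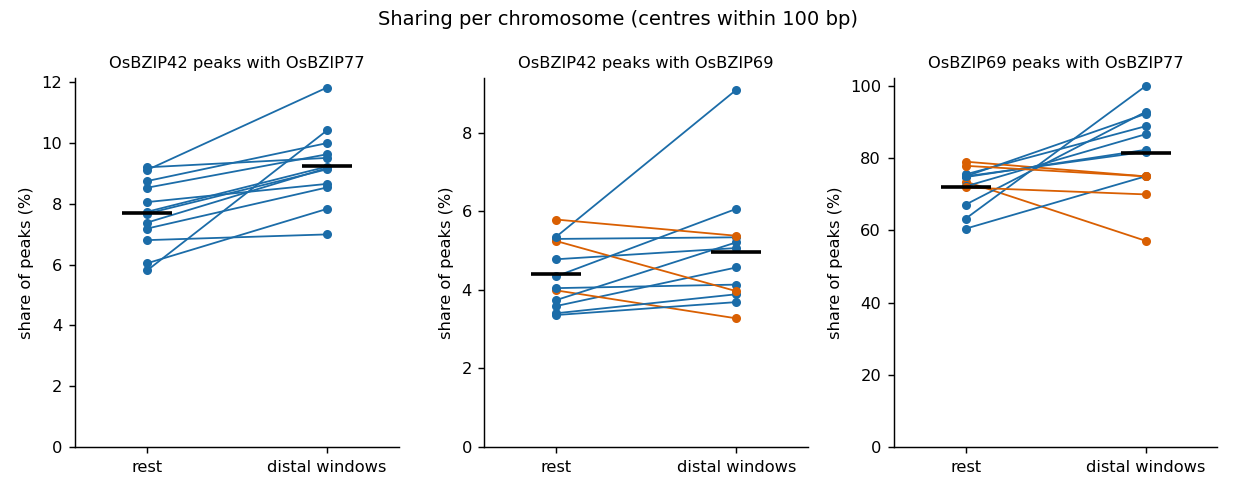
Share of peaks (%, vertical axes, from 0) with a centre of another list within 100 bp, in the rest and in the distal windows of each of 12 chromosomes (joined points; blue where higher at the ends, orange where not), with means as black bars. OsBZIP42 peaks were shared with OsBZIP77 more often at the ends on 12 of 12 chromosomes, while the lines of the other comparisons cross.

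From the side of the shorter lists, the nesting in OsBZIP42 held at the ends. Of the distal OsBZIP69 peaks 137 of 140, or 97.9% (93.9 to 99.6), had an OsBZIP42 centre within 100 bp, against 97.5% in the rest and 97.6% overall. Of the distal OsBZIP77 peaks 279 of 286, or 97.6% (95 to 99), did, against 96.2% in the rest and 96.4% overall. OsBZIP69 peaks were found with OsBZIP77 in 113 of 140 cases, or 80.7% (73.2 to 86.9), against 72.6% (69.7 to 75.4) in the rest and 73.6% overall. Paired by chromosome this came to 9.26 ± 14.4 percentage points, higher on 8 of 12 (exact permutation test, p = 0.0474, adjusted p = 0.142). It passed with windows of 3 and 5 Mb (exact permutation tests, adjusted p = 0.0293 and 0.00586). The reverse share, of OsBZIP77 peaks found with OsBZIP69, was 39.5% in the windows, 39.5% in the rest and 39.5% overall. The 3 distal OsBZIP69 peaks and the 7 distal OsBZIP77 peaks in neither other list were weak, with signals from 9.2 to 14 and from 11 to 16.

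Sharing followed the strength of the OsBZIP42 peak at the ends as elsewhere. In the strongest decile of the OsBZIP42 list, which held 405 distal peaks, OsBZIP69 was present at 26.9% (22.7 to 31.5) and at 26.8% (25 to 28.6) in the rest. OsBZIP77 was present at 42.5% (37.6 to 47.4) and 40.4% (38.4 to 42.3). In the next decile the OsBZIP69 shares were 5.71% (3.62 to 8.52) and 8.14% (7.08 to 9.30), and those of OsBZIP77 were 16.6% (13 to 20.7) and 16.4% (15 to 18). In the weakest decile, 1 of 328 distal OsBZIP42 peaks had an OsBZIP69 peak and 1 had an OsBZIP77 peak. The strongest decile made up 11.5% of the distal and 9.84% of the other OsBZIP42 peaks. At distal sites shared with OsBZIP42 the signal of the shorter list had a median ratio to it of 0.325 for OsBZIP69 and 0.305 for OsBZIP77, next to 0.317 and 0.305 in the rest.

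**Figure D5:**
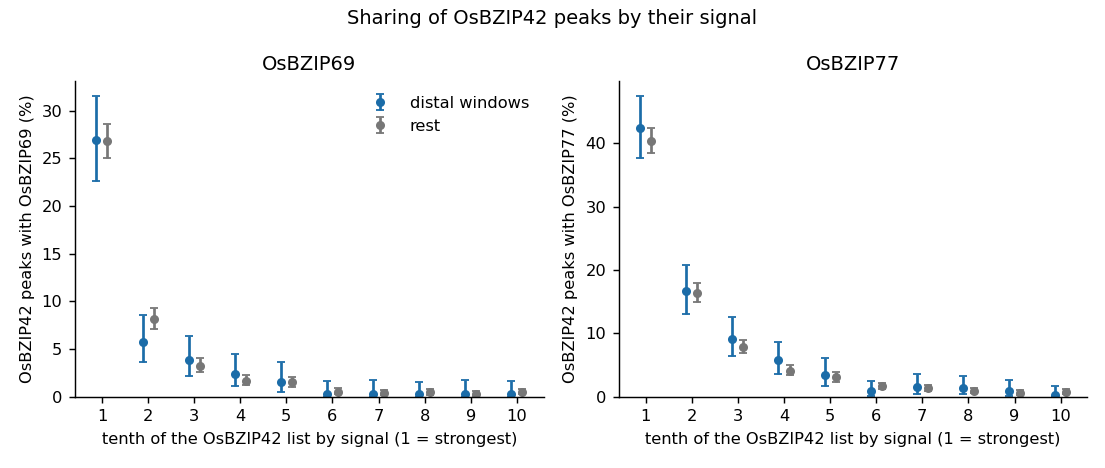
Share of OsBZIP42 peaks (%, vertical axes, from 0) with an OsBZIP69 peak (left) or an OsBZIP77 peak (right) within 100 bp, by decile of the OsBZIP42 list from strongest to weakest, in the distal windows (blue) and the rest (grey), with exact binomial 95% intervals. The intervals of both zones overlap in each decile, and sharing with OsBZIP77 drops from 42.5% to 16.6% between the first and second decile at the ends.

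Density at the ends was compared between the proteins through the log2 ratio of distal to rest density on each chromosome. For OsBZIP77 and OsBZIP42 this largely repeats the comparison of their sharing, since nearly all OsBZIP77 peaks lay near an OsBZIP42 peak. OsBZIP77 had a mean of 0.53 and OsBZIP42 of 0.33, a difference of 0.20 ± 0.25, positive on 9 of 12 chromosomes (exact permutation test, p = 0.0156, adjusted p = 0.0469 over 3 pairs). OsBZIP69 had 0.36 and differed from OsBZIP42 by 0.03 ± 0.37 (exact permutation test, adjusted p = 0.806), and OsBZIP77 from OsBZIP69 by 0.17 ± 0.41 (exact permutation test, adjusted p = 0.275). The call for OsBZIP77 ended when any 1 of 9 chromosomes was left out, that is any except 3, 5 and 10, with adjusted p from 0.0117 to 0.0938 over the 12 omissions (exact permutation tests). The difference was -0.0576 with windows of 1 Mb and -0.0724 against the zone 2 to 6 Mb from the same ends, and neither passed (exact permutation tests, adjusted p = 0.717 and 0.359).

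Close spacing was not detectably more common at the ends. Of the distal OsBZIP42 peaks 482, or 13.7% (12.6 to 14.9), had another OsBZIP42 centre within 200 bp, against 12.9% (12.5 to 13.4) in the rest, a paired difference of 0.814 ± 3.10 percentage points (exact permutation test, adjusted p = 0.593). The share for OsBZIP69 was 10 of 140, or 7.14% (3.48 to 12.7), against 4.14% (exact permutation test, adjusted p = 0.629). For OsBZIP77 it was 14 of 286, or 4.90% (2.70 to 8.08), against 2.14% (exact permutation test, adjusted p = 0.457). The median gap between neighbouring OsBZIP42 centres was 5656 bp in the windows and 6862 bp in the rest. Gaps of at most 100 bp were 4.29% of the gaps in the windows and 3.46% in the rest, and gaps of 101 to 200 bp 2.72% and 3.18%. Neighbouring sites and 1 site split by the peak caller cannot be told apart.

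The windows held 229 pairs and 8 triplets of OsBZIP42 centres with gaps of at most 200 bp, and the rest held 1475 pairs, 79 triplets and 5 groups of 4. The windows make up 10.2% of the length and hold 12.4% of the OsBZIP42 peaks. Such groups become more common with density by construction. Whether pairs or triplets were concentrated at the ends was not tested. Of the 8 distal triplets, 4 were on chromosome 5, whose windows held 187 and 244 of the 3515 distal OsBZIP42 peaks. The strongest triplet, in the first window of chromosome 5, was centred on 1659316, 1659357 and 1659391, where the signal was 42.1, 243 and 23.6. OsBZIP77 was called at 1659317 (22.0) and 1659390 (21.0), and OsBZIP69 lay within 100 bp too. Another there, at 1426513, 1426689 and 1426730, had 40.3, 82.6 and 110 for OsBZIP42, with OsBZIP77 but no OsBZIP69 peak within 100 bp. In the first window of chromosome 2 the centres were at 1446915, 1446960 and 1447137, with 80.2, 114 and 12.4, and both other proteins had centres within 100 bp. The 5 weaker triplets had summed signals of 56.0 on chromosome 3, 69.1 on chromosome 7, 70 on chromosome 1, and 87.0 and 111 in the last window of chromosome 5. OsBZIP77 was within 100 bp of 4 of the 8 triplets and OsBZIP69 of 2. No such share is given for the triplets of the rest, so these counts do not describe a trait of the ends.

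Paired centres of the shorter lists were few: 5 pairs for OsBZIP69 and 7 for OsBZIP77, all with OsBZIP42 centres within 100 bp. In the last window of chromosome 10 both had pairs at 22486859 and 22487017, with 46.5 and 39.5 for OsBZIP69 and 27.4 and 31.1 for OsBZIP77. In the first window of chromosome 5 OsBZIP69 had centres at 1251104 and 1251161 with 34.9 and 40.3, and OsBZIP77 at 1251104 and 1251182 with 45.8 and 32.2, at the OsBZIP42 leader on that chromosome named above.

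The control list was sparse at the ends. Its 9 distal peaks had signals from 6.0 to 8.0, against up to 30.0 in the rest, and 6 were in last windows. One, on chromosome 8 from 558613 to 558813, was centred 65 bp from an OsBZIP42 peak; the others lay 614 to 14671 bp from one. No distal OsBZIP69 or OsBZIP77 peak was within 1000 bp of a HALO-GST peak (0 of 140 and 0 of 286). A count of 0 limits the share to 2.14% and 1.05%, by counting error only. Going by the deposited names, the bZIP lists were called with a negative control, so such overlap can be expected to be rare anywhere. No such share is given for the rest, so these counts do not describe a trait of the ends.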

How the data were processed

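The data are 4 DAP-seq peak lists, from 1 library each of OsBZIP42, OsBZIP69, OsBZIP77 and HALO-GST, grouped by sample title. Bowtie2 2.2.8 is the aligner named in the submitters' processing notes. The deposited file names say that GEM called the peaks, with a negative control for the 3 bZIP lists and without one for HALO-GST, and carry the word noMulti, read here as multi-mapped reads left out, which no source states. The build of the genome is not given in the sources. The deposited signal per peak (of unstated unit and scaling) ranked peaks within a list. The deposited −log10 q-values, which start at a q of 0.01, served for 1 alternative. Read depth is unknown.

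Every peak is 201 bp wide; coordinates are 1-based. A chromosome's end is the furthest peak end in any list, so the last windows start at a peak. Peaks were not assigned to genes and no sequence was searched, since the gene table used for rice belongs to another assembly; the planned motif comparison was not run. Sharing means a centre of the other list within 100 bp.

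Each measure was compared between the windows and the rest with an exact two-sided sign-flip permutation test over chromosomes and Benjamini-Hochberg adjustment within a family (threshold 0.05; Python 3.11.15, numpy 2.4.6, pandas 2.3.3, scipy 1.17.1). The code was tested on simulated data. Members, windows and tests were chosen with earlier results of these data known. The comparisons of outer with inner Mb and between proteins were added after seeing the data. Named sites were the strongest OsBZIP42 peak of each window, the 5 strongest distal peaks per list, the 10 best common sites, groups of 3 or more OsBZIP42 centres, and the outermost peaks.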

Additional observations from a re-analysis of the deposited data

How the results depend on the processing

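Of 217 alternatives over 28 results, 160 left direction and call as reported; the cause of the others was not tested. Values are differences of the distal windows from the rest, in peaks per Mb, percentage points for shares, or log2. With windows of 1 Mb, density differed by 13.7 for OsBZIP42, 0.248 for OsBZIP69 and 1.04 for OsBZIP77, sharing of OsBZIP42 with OsBZIP77 by 0.176, with OsBZIP69 by -0.608, OsBZIP69 with OsBZIP42 by -2.28, OsBZIP42 clustering by -3.47, OsBZIP42 signal by 0.0758, first against last OsBZIP69 windows by -1, and the protein ratios by -0.26 (OsBZIP69 against OsBZIP42) and -0.0576 (OsBZIP77 against OsBZIP42). With 3 Mb, OsBZIP42 signal (0.10) and sharing of OsBZIP69 with OsBZIP77 (12.4) passed. With 5 Mb, signal passed for OsBZIP42 (0.11) and OsBZIP77 (0.10), as did sharing of OsBZIP69 with OsBZIP77 (9.57), OsBZIP77 with OsBZIP42 (2.50) and OsBZIP42 with OsBZIP69 (1.06), and the ratio of OsBZIP69 against OsBZIP42 (0.23).

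Against the zone 2 to 6 Mb from the same ends, density differed by 0.646, -0.396 and -0.323 for OsBZIP42, OsBZIP69 and OsBZIP77, the ratios against OsBZIP42 by -0.15 (OsBZIP69) and -0.0724 (OsBZIP77), OsBZIP77 signal by -0.0338, OsBZIP42 clustering by -0.393, and sharing by -0.225 (OsBZIP42 with OsBZIP77), -0.248 (OsBZIP42 with OsBZIP69), -0.661 (OsBZIP77 with OsBZIP42) and -0.826 (OsBZIP69 with OsBZIP42). With the last windows alone, OsBZIP69 density differed by 0.662, its clustering by -1.82, OsBZIP77 signal by -0.0293, sharing of OsBZIP77 with OsBZIP69 by -3.08, and the ratios by -0.10 (OsBZIP69 against OsBZIP42) and 0.23 (OsBZIP77 against OsBZIP42). With the first alone, OsBZIP77 density differed by 1.13, OsBZIP42 clustering by -0.627, sharing of OsBZIP42 with OsBZIP77 by 0.870 and of OsBZIP69 with OsBZIP42 by -2.00, and the OsBZIP77 ratios by 0.0417 (against OsBZIP42) and -0.14 (against OsBZIP69).

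With only the upper 50% of peaks by q-value kept, common sites numbered 66, sharing differed by 1.54 (OsBZIP42 with OsBZIP77) and 2.09 (OsBZIP77 with OsBZIP42, which passed), OsBZIP69 signal by -0.0512 and clustering by -1.04, the outer against inner Mb of OsBZIP77 last windows by 0.167, and the OsBZIP77 ratios by 0.10 (against OsBZIP42) and -0.0257 (against OsBZIP69). Weighting the pooled rest of all chromosomes to the distal signals, which drops the pairing, gave 0.872 for OsBZIP42 with OsBZIP77. It gave -0.417 for OsBZIP69 with OsBZIP42 and -1.33 for OsBZIP77 with OsBZIP69. Sharing within 50 bp gave -1.46 for OsBZIP69 with OsBZIP42. The ratio of OsBZIP77 against OsBZIP42 also lost its call with nearby centres merged (0.17), the first 2 Mb of all 12 chromosomes added (0.13), or the rest without peak-poor 1 Mb bins (0.19).

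Leave-one-out over chromosomes kept direction and call in 271 of 294 fits. The ratio of OsBZIP77 against OsBZIP42 ranged from 0.144 to 0.235 and lost its call in 9. OsBZIP42 signal ranged from 0.0774 to 0.109 and passed without chromosome 3 or 11, and sharing of OsBZIP69 with OsBZIP77 from 6.76 to 11.6 and passed without chromosome 3. Results that changed sign or reached 0, none of them past the threshold, ranged from -0.590 to 2.85 (OsBZIP69 clustering), -8.08 to 0 (first against last OsBZIP42 windows), -0.455 to 0.364 (outer against inner Mb of OsBZIP69 last windows), -0.0447 to 0.0772 (ratio of OsBZIP69 against OsBZIP42), -0.942 to 2.82 (OsBZIP77 with OsBZIP69) and -0.0116 to 0.0295 (OsBZIP77 signal).

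No paired analysis of libraries was possible because there was 1 for each bait, and the pairs tested are zones of the same chromosome within a library. The motif comparison was not run. Library depth, which limits how many weak sites were called, is unknown, and the lists of 140 and 286 distal peaks leave wide intervals.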
